A study of Mus musculus with 86 samples.

Results

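The levels of 7 interferon-stimulated genes, Rsad2, Isg15, Ifit1, Ifit3, Irf7, Bst2 and Usp18, were taken from a table of 42807 genes measured by RNA-seq in a pair of calf muscles from male C57BL/6N mice. The genes were chosen by name as well-known members of the interferon response, and all 7 were in the table and passed the filter on low counts in both muscles. The gastrocnemius (GA) is made mostly of fast fibres, and the soleus (SO) beneath it holds many slow fibres. The mice were 10 weeks old on arrival, and each muscle gave 43 libraries in 9 groups.

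In 8 of these groups the mice were injected intraperitoneally with dexamethasone (DEX), a synthetic glucocorticoid, at a daily dose of 25 mg/kg over 10 days. In 6 of those they were also gavaged with Jakyak-gamcho-tang, a hot-water extract of peony root and liquorice root. The extracts JGT02, JGT03 and JGT04 held the roots at 2:1, 1:1 and 1:2 and were given at daily doses of 100 or 400 mg/kg. Another group was gavaged with 200 mg/kg of resveratrol (RSV), a polyphenol of grapes, on top of DEX. The DEX group itself was gavaged with buffer, and the non-treated (NT) group received buffer by both routes and no DEX. Extracts and RSV were given in a carboxymethylcellulose vehicle that neither the DEX nor the NT group received, so effects of treatment and of vehicle cannot be told apart. There were 4 mice in the DEX group and in the group given JGT04 at 400 mg/kg, and 5 in each of the other 7. Muscles were taken 1 day after the last dose, and the labels do not say whether mice of a group shared a cage or litter.

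Interferons are secreted proteins that signal through receptors on the cell surface and Janus kinases to transcription factors, among them STAT2 and IRF9. These act at interferon-stimulated response elements (ISREs) in the promoters of many genes that restrict viruses or tune the response itself. Glucocorticoids act through a nuclear receptor and are known to dampen inflammatory gene expression in many cell types. Among the genes described here, Rsad2 encodes viperin, an enzyme that makes a chain-terminating nucleotide. Isg15 encodes a ubiquitin-like protein that is attached to other proteins, and Usp18 the protease that removes it and that also blocks signalling from the type I interferon receptor. Ifit1 and Ifit3 encode proteins that bind viral RNA or each other. Bst2 encodes tetherin, which holds budding virus particles at the cell surface, and Irf7 a transcription factor that amplifies interferon production.

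Promoter sequences are shown because the results set Rsad2 apart from its fellow genes and place it beside its neighbour Cmpk2. RefSeq tables of build GRCm38.p6 held a promoter for 6 of the 7 genes (not for Usp18), and the 250 bases before the start were searched on both strands for the ISRE core GAAANNGAAA. A match was present in 5 of the 6 promoters (Rsad2, Isg15, Ifit1, Ifit3 and Bst2, not Irf7), against 978 of 32851 promoters in all, or 2.98%. The glucocorticoid response element core ACANNNTGT, which reads alike on both strands, had 0 matches in the 6 promoters and was present in 5.84% of all promoters. The sequences below lie at chr12:26456453-26456702 on the minus strand for Rsad2, chr12:26468965-26469214 on the plus strand for Cmpk2, chr4:156200819-156201068 on the minus strand for Isg15 and chr19:34640639-34640888 on the plus strand for Ifit1. Each runs 5′ to 3′ towards the gene, and capitals mark ISRE core matches.
Rsad2: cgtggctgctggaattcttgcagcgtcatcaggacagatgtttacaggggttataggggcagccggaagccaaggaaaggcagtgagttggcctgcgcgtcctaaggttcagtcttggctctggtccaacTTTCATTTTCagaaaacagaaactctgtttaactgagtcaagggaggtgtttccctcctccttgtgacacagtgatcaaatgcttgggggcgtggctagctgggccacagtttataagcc
Cmpk2: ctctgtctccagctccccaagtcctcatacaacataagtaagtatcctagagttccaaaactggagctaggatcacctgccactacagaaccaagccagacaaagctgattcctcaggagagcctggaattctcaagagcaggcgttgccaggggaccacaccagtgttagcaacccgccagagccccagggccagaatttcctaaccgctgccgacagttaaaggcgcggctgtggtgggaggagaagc
Isg15: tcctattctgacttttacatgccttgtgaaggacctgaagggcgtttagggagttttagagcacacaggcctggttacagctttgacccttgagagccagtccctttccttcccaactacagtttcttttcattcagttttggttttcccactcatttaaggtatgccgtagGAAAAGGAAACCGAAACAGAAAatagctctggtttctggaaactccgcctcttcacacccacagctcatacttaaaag
Ifit1: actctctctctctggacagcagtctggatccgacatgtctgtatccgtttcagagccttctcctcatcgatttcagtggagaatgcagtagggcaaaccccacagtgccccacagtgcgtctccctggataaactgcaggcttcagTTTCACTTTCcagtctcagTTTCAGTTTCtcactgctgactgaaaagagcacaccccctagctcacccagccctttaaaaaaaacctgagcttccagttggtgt
The single match of Rsad2 begins 120 bases before the start, Isg15 has 3 overlapping matches between 78 and 66 bases before it, Ifit1 has matches at 104 and 85 bases, and Cmpk2 has none in this window. A match of letters is a description and not a binding site.

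On GRCm38, Rsad2 lies at chr12:26442746-26456452 on the minus strand. Its neighbour Cmpk2 (chr12:26469204-26479837, plus strand), which encodes a nucleotide kinase and is itself interferon-stimulated, starts 12752 bases away and is transcribed in the opposite direction. Isg15 is at chr4:156199424-156200818, Ifit1 at chr19:34640871-34650009, Ifit3 at chr19:34583531-34588731, Irf7 at chr7:141262706-141266481, Bst2 at chr8:71534255-71537456 and Usp18 at chr6:121245906-121270917. Ifit3 shared 61.8% of its 31-base words with its copy Ifit3b, Isg15 12.8% and Ifit1 10.5% with other genes, so their reads may have been divided between copies. Exons of Irf7 overlap Phrf1, and exons of Usp18 overlap Gm44148, on the opposite strand. Whether counting used strand is not given in the sources used here, so reads of those pairs cannot be told apart.

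Libraries held 22346100 to 32143700 counts in GA and 18751700 to 34626900 counts in SO, of which Rsad2 took 26 to 303 in GA and 24 to 327 in SO. Levels are given as CPM, counts scaled to a common library size with edgeR's TMM factors. Muscle identity followed the labels: in NT mice all 5 slow-fibre markers were higher and all 6 fast-fibre markers lower in SO than in GA, with median log2 differences of 4.75 and -3.50. Lcn2, a glucocorticoid-induced gene, averaged 79.8 ± 9.1 CPM in GA of DEX mice and 1.68 ± 1.45 CPM in GA of NT mice (SD, n = 4 and 5). Some libraries stood apart. The summed level of macrophage markers was 2527 CPM in GA of JGT02 100 mg/kg mouse 1 and 3021 CPM in SO of JGT02 100 mg/kg mouse 5, against 73.4 to 97.0 CPM in GA and 36.7 to 85.2 CPM in SO of NT mice. SO of JGT02 400 mg/kg mouse 1, listed with those 2 from earlier results of these data, had the lowest summed level of the 7 genes in SO, 14.5 CPM. SO of DEX mouse 4 had 364 CPM of macrophage markers, against 45.4 to 73.3 CPM in the other DEX mice. Each library held 1 muscle of 1 mouse, so replicates are animals. Calls of the 7 genes, and list results that change without these libraries, are given with and without some or all of them.

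Rsad2 was the one gene of the 7 that fell with DEX in both muscles. In GA, Rsad2 was at 1.80, 1.64, 1.85 and 1.62 CPM in the 4 DEX mice, against 3.45, 4.51, 11.3, 3.79 and 4.18 CPM in the 5 NT mice. The DEX values were nearly equal, all lay below the lowest NT value, and NT mouse 3 stood far above the other NT mice. How many of all genes tested separate the groups in this way was not counted, here or in SO. The log2 fold change was -1.65 (SE 0.33), or 3.15-fold lower in DEX mice, with an adjusted p of 0.000741 by edgeR's quasi-likelihood test. It was the only one of the 7 genes called, where 8.38% of all genes tested were. Without NT mouse 3 the change was -1.20 and the adjusted p 0.00650. With the 3 JGT02 libraries left out of both muscles it was -1.65 in GA with an adjusted p of 2.59e-06.

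In SO, Rsad2 was at 6.11, 7.16, 5.66 and 2.42 CPM in DEX mice, against 9.73, 11.003, 11.9, 8.65 and 9.89 CPM in NT mice. The groups did not overlap, and DEX mouse 4, the library with many macrophage markers, had the lowest value. Rsad2 was 1.92-fold lower in DEX mice, a log2 fold change of -0.94 (SE 0.29, edgeR adjusted p = 0.0213), and again the only gene of the 7 called, where 20.8% of all genes were. Without DEX mouse 4 the fold change was -0.69 with an adjusted p of 0.117. With the 3 JGT02 libraries left out as well it was -0.69 with an adjusted p of 0.00917. With only those 3 left out it was -0.94 with an adjusted p of 0.00108.

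Every group given DEX had a lower mean Rsad2 level than NT mice in its muscle. Contrasting the mean of all 8 groups given DEX with NT, Rsad2 changed by -1.66 in GA (SE 0.20, edgeR adjusted p = 3.84e-08) and by -1.55 in SO (SE 0.18, adjusted p = 1.14e-07). In each muscle it was the only one of the 7 genes called, where 21.2% of genes in GA and 17.8% in SO were called. In GA, 37 of the 38 libraries of mice given DEX lay below the lowest NT library, with GA of JGT02 100 mg/kg mouse 1, the library rich in macrophage markers, as the exception at 5.68 CPM. In SO, all 38 lay below it, at 0.937 to 7.16 CPM, and with the library set described below as a term the SO contrast was -1.94 (adjusted p = 0.000467). The means of the 8 groups ran from 1.24 ± 0.28 CPM in RSV to 2.48 ± 1.81 CPM in JGT02 at 100 mg/kg in GA (SD, n = 5 each), and from 2.67 ± 0.19 CPM in JGT04 at 100 mg/kg (n = 5) to 5.34 ± 2.04 CPM in DEX (n = 4) in SO. NT means were 5.45 ± 3.31 CPM in GA and 10.2 ± 1.3 CPM in SO (SD, n = 5 each). Leaving out the 3 JGT02 libraries gave contrasts of -1.72 in GA and -1.56 in SO, and in GA without NT mouse 3 the contrast was -1.21 with an adjusted p of 1.41e-05.

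**Figure D1:**
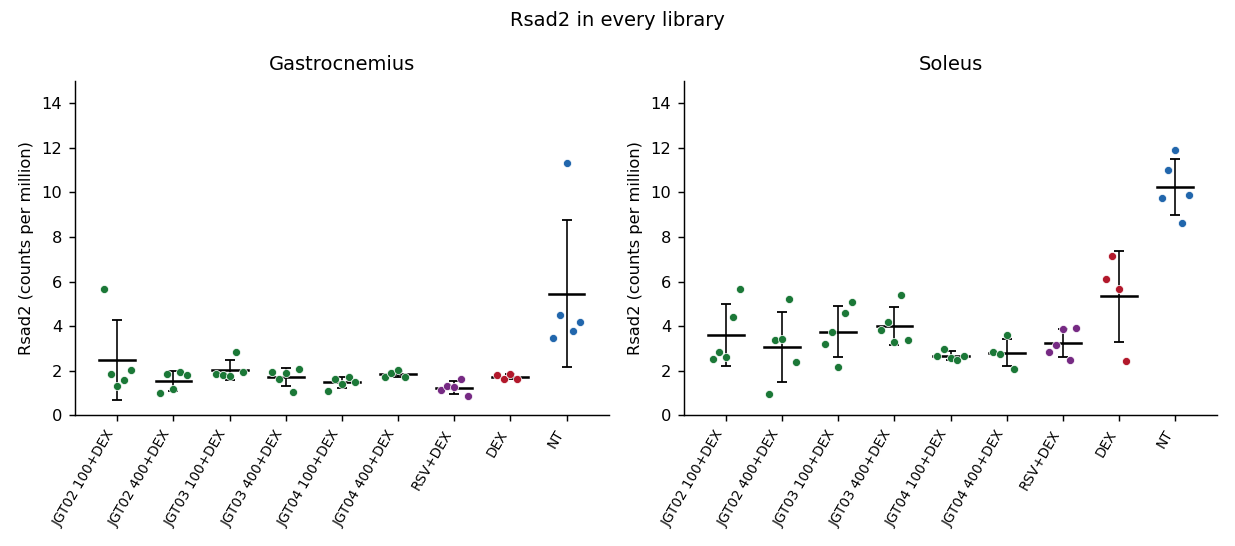
Rsad2 in CPM (linear axis from 0) in every library of GA (left) and SO (right), with horizontal bars for group means and whiskers for 1 SD. All groups given DEX in SO lie below the lowest NT library at 8.65 CPM, and in GA 1 library given DEX, at 5.68 CPM, lies above the lowest NT library at 3.45 CPM.

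Some cell type markers also fell in mice given DEX, and others did not. Markers of dendritic cells and class II antigen presentation summed to 7.85 to 13.2 CPM in GA of DEX mice, against 45.5 to 79.1 CPM in NT mice. In SO they summed to 8.16 to 113 CPM in DEX mice, against 27.4 to 76.8 CPM in NT mice, and the 113 CPM belonged to mouse 4, whose Rsad2 was the lowest of its group. Over all 8 groups given DEX, 5 of the 7 class II and dendritic markers tested in GA and 4 of the 9 tested in SO were called lower, where 10.9% of all genes in GA and 8.78% in SO were. With the library set as a term, edgeR called 0 of the 9 in SO, with 4 at an unadjusted p under 0.05. Of 10 endothelial markers, 10 were called lower in GA, and the single call in SO was higher. Macrophage markers summed to 64.6 to 100.5 CPM in GA of DEX mice, against 73.4 to 97.0 CPM in NT mice, and none of them passed over all groups given DEX in either muscle. T and NK cell markers were too low to test and summed to 0.0772 to 0.243 CPM in GA of DEX mice, against 0.252 to 0.766 CPM in NT mice. No marker of the macrophage, dendritic or T and NK cell lists was at 0 in all libraries. The part of these cells in the fall of Rsad2 was not tested, and in whole muscle fewer cells of a type and less RNA per cell cannot be told apart.

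Cmpk2, the gene transcribed away from Rsad2, also fell. It averaged 2.17 ± 0.35 CPM in GA of DEX mice (n = 4) and 3.95 ± 0.90 CPM in NT mice (SD, n = 5), a log2 fold change of -0.86 (edgeR adjusted p = 0.00113), and -0.88 over all groups given DEX (adjusted p = 2.90e-07). In SO, Cmpk2 averaged 3.56 ± 1.17 CPM in DEX mice and 4.07 ± 0.62 CPM in NT mice, a log2 difference of -0.20 that did not pass (edgeR adjusted p = 0.616). Over all groups given DEX the fall of Cmpk2 in SO passed, at -0.69 (adjusted p = 0.00490).

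In the listed order the libraries fall into 3 sets that the labels do not name, taken from earlier results of these data. The titles in the labels put all libraries in the same batch. At the borders levels shift within a group: Cebpb was at 15.3 to 16.2 CPM in GA of JGT04 100 mg/kg mice 1 to 3, of the first set, and at 23.3 and 23.4 CPM in mice 4 and 5, of the second. In SO of JGT02 400 mg/kg, Cebpb was at 29.1 to 36.8 CPM in mice 1 to 3, of the second set, and at 15.6 and 17.96 CPM in mice 4 and 5, of the third. All NT and DEX mice of GA are in the first set, and all NT and DEX mice of SO in the second. Of the treated GA libraries, the 4 of JGT04 at 400 mg/kg, the 5 of RSV and 2 of JGT04 at 100 mg/kg are in the second set. Of the treated SO libraries, the 5 of JGT02 at 100 mg/kg and 3 of JGT02 at 400 mg/kg share the second set with DEX, while the other 26, all those of JGT03, JGT04 and RSV included, are in the third. Within the first set, Rsad2 in GA was at 0.976 to 5.68 CPM in 27 libraries given DEX, against 3.45 to 11.3 CPM in the 5 NT libraries. Within the second, Rsad2 in SO was at 0.937 to 7.16 CPM in 12 libraries given DEX, against 8.65 to 11.9 CPM in the 5 NT libraries. Within a set the groups differed as they did in the whole muscle, with the same single exception in GA.

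None of the 6 other genes passed against NT in either muscle. The effector Isg15 was at 1.18, 0.783, 1.04 and 0.775 CPM in GA of DEX mice, against 0.669, 0.795, 2.47, 0.974 and 0.871 CPM in GA of NT mice. In SO it was at 2.32, 2.84, 2.46 and 1.44 CPM in DEX mice, against 1.06, 1.55, 2.48, 0.749 and 0.831 CPM in NT mice. The groups overlapped in both muscles, and only NT mouse 3 reached the level of DEX mice 1 to 3 in SO. The log2 difference was -0.28 (95% interval -1.08 to 0.52) in GA and 0.76 (interval -0.00 to 1.53, edgeR adjusted p = 0.158) in SO. With the 3 JGT02 libraries left out, the SO difference of Isg15 was 0.77 and passed (adjusted p = 0.0445), and without DEX mouse 4 as well it was 0.94 (adjusted p = 0.0228).

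The RNA-binding proteins followed. Ifit1 was at 2.01, 2.67, 2.12 and 2.16 CPM in GA of DEX mice, against 1.58, 1.53, 4.90, 1.77 and 3.31 CPM in NT mice. Ifit3 was at 4.06, 3.88, 5.40 and 3.64 CPM in GA of DEX mice, against 6.73, 4.23, 9.39, 3.86 and 4.91 CPM in NT mice. Both genes had their highest NT value in mouse 3, and the groups overlapped. In SO, Ifit1 averaged 3.19 ± 0.83 CPM in DEX mice (n = 4) and 2.38 ± 0.56 CPM in NT mice (SD, n = 5), and Ifit3 averaged 6.48 ± 2.46 CPM in DEX mice and 5.37 ± 1.65 CPM in NT mice. The log2 differences were -0.22 (interval -0.82 to 0.38) for Ifit1 and -0.46 (interval -0.95 to 0.04) for Ifit3 in GA, and 0.42 (interval -0.29 to 1.14) and 0.27 (interval -0.38 to 0.92) in SO, so changes within these bounds were not told from none.

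The regulators and the surface protein were similar. Irf7 was at 3.71, 3.27, 4.94 and 2.83 CPM in GA of DEX mice, against 2.04, 3.53, 9.76, 2.38 and 3.17 CPM in NT mice. Only NT mouse 3 lay above the DEX mice, while 2 NT mice lay below all of them. Over all groups given DEX the log2 difference of Irf7 in GA was 0.23 (edgeR adjusted p = 0.566), and without NT mouse 3 it was 0.81 and passed (adjusted p = 0.0108). Bst2 was at 5.90, 5.44, 5.44 and 5.96 CPM in GA of DEX mice, against 4.16, 5.50, 14.2, 4.72 and 5.50 CPM in NT mice, again with mouse 3 alone above the rest. In SO, Bst2 averaged 9.21 ± 1.11 CPM in DEX mice and 7.22 ± 2.72 CPM in NT mice, and Irf7 averaged 6.85 ± 1.94 CPM in DEX mice and 5.55 ± 2.37 CPM in NT mice. Usp18, the brake on the pathway, averaged 1.94 ± 0.33 CPM in GA of DEX mice and 1.66 ± 0.42 CPM in GA of NT mice, and 1.52 ± 0.42 CPM in SO of DEX mice and 1.13 ± 0.18 CPM in SO of NT mice. The smallest adjusted p of these 3 genes against NT was 0.321, for Usp18 in SO of DEX mice.

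**Figure D2:**
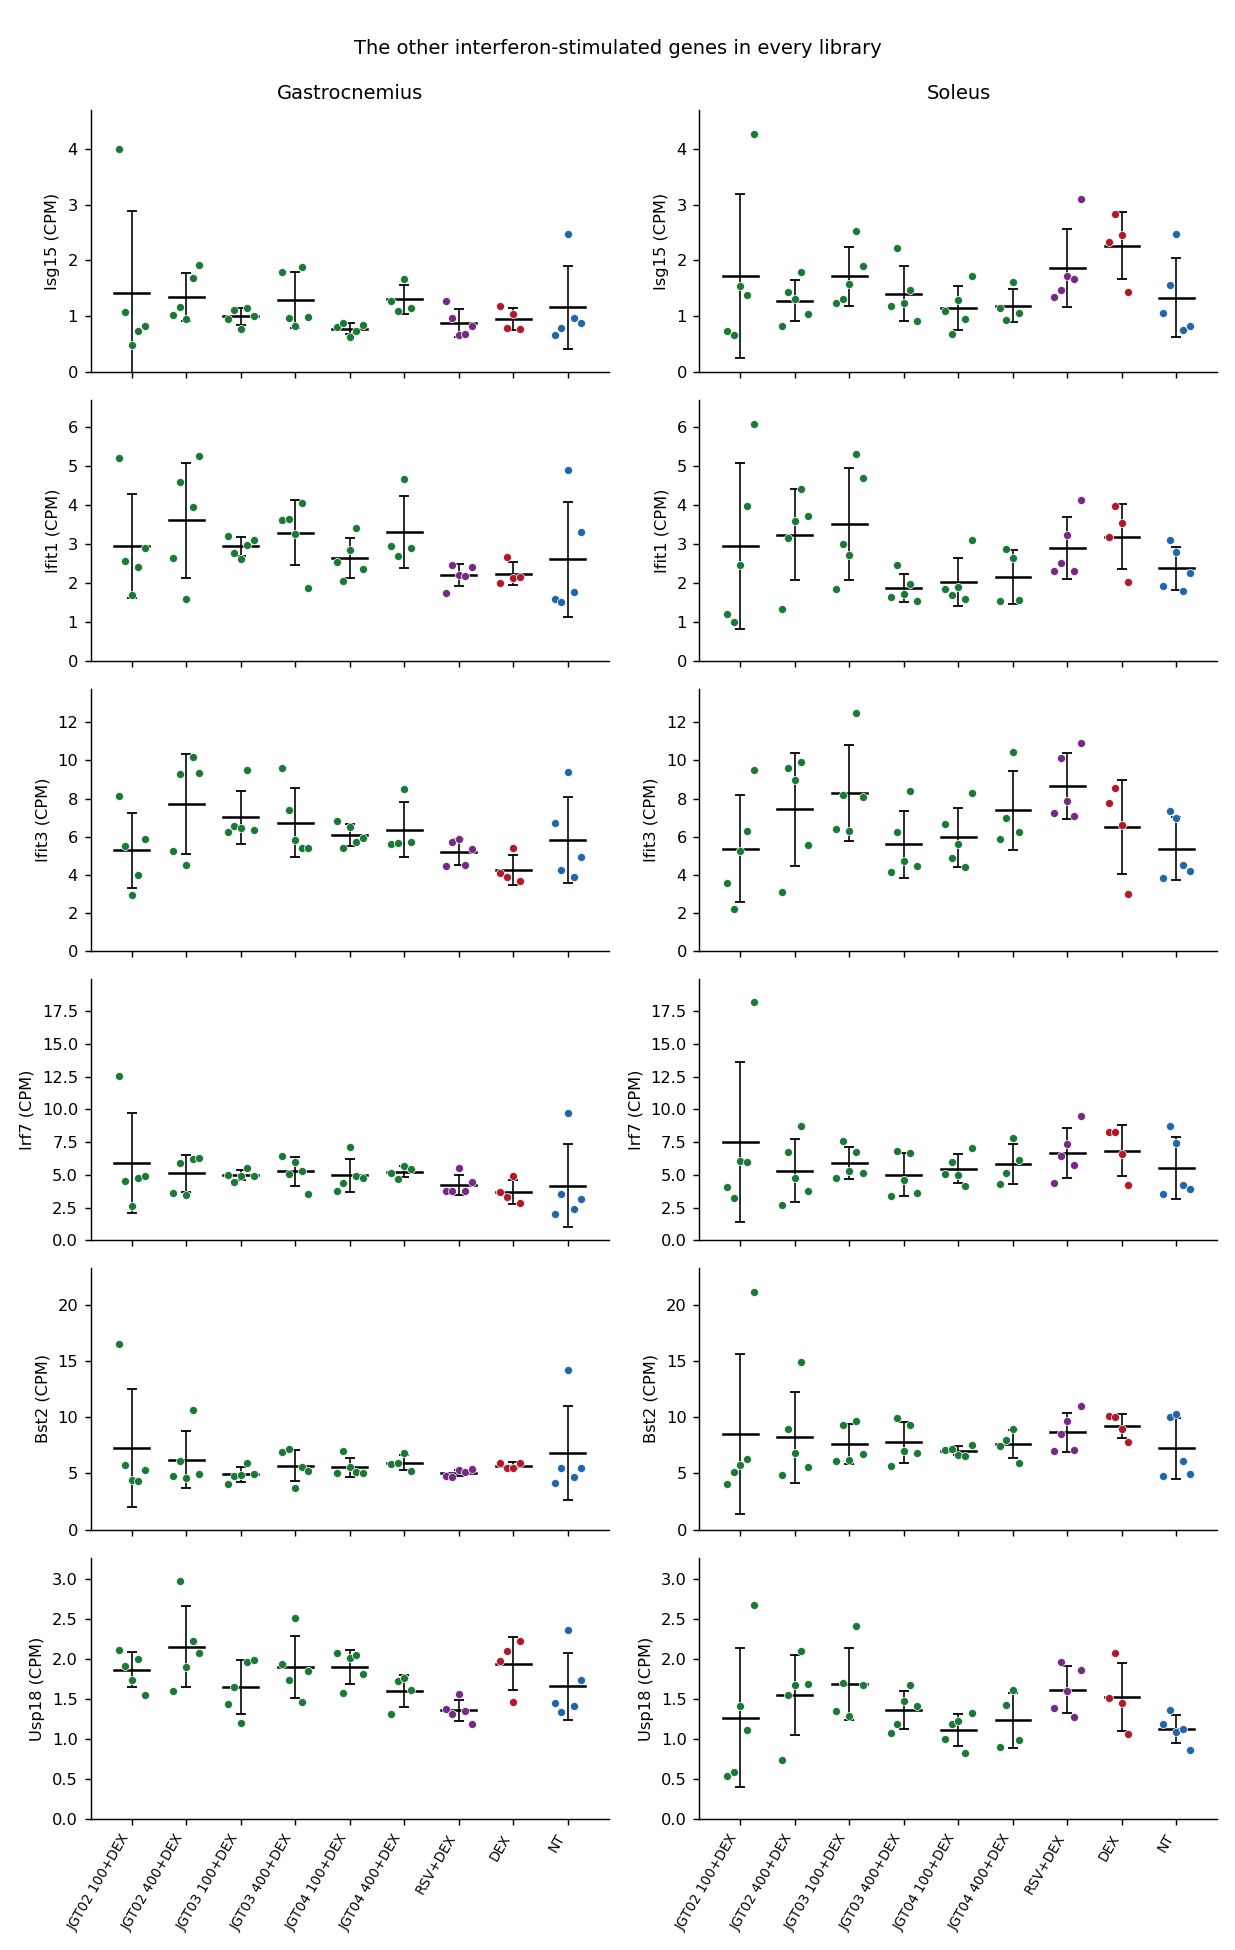
Levels of Isg15, Ifit1, Ifit3, Irf7, Bst2 and Usp18 in CPM (linear axes from 0) in every library of GA (left) and SO (right), with group means as bars and 1 SD as whiskers. DEX and NT libraries overlap for each of these 6 genes, and single libraries stand out, such as GA of NT mouse 3 and SO of JGT02 100 mg/kg mouse 5.

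**Figure D3:**
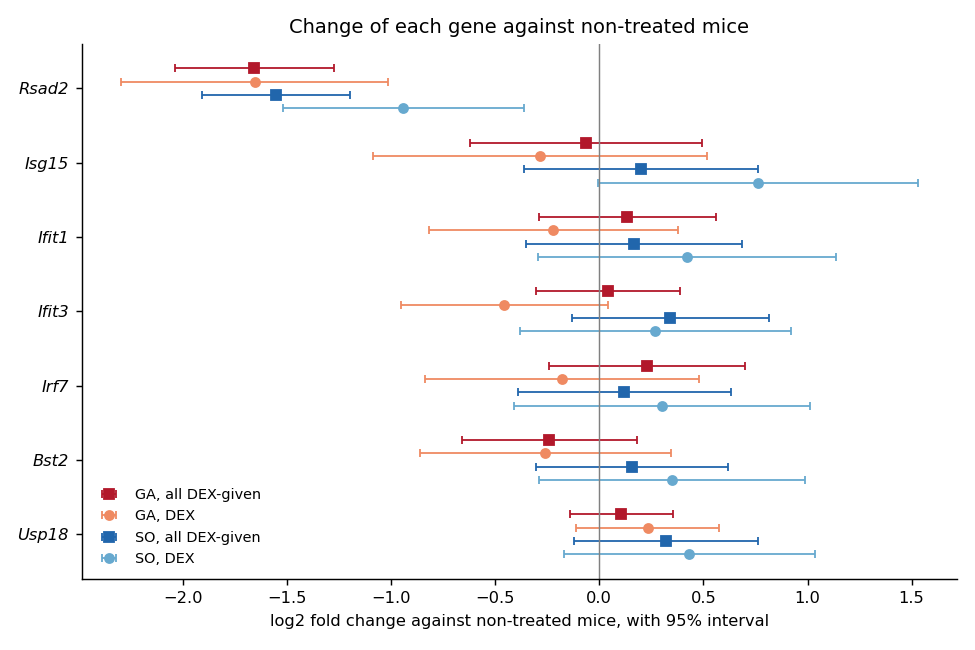
Log2 fold change of each gene against NT mice with its 95% interval, for all groups given DEX together (squares) and for the DEX group alone (circles) in GA and SO. All 4 intervals of Rsad2 lie below 0, and each interval of the other 6 genes includes 0.

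Levels corrected for exon length placed the genes in order and showed the same shift. The length was that of all annotated exons of a gene merged. For Irf7 these formed 1 stretch of 3776 bases, the full span of the gene. A shorter transcript would place Irf7 higher, so its rank is uncertain. In GA of DEX mice, Bst2 stood highest at 6.30 ± 0.31 CPM per kilobase, then Ifit3 (2.43 ± 0.45), Isg15 (1.25 ± 0.26), Irf7 (0.977 ± 0.241), Ifit1 (0.843 ± 0.11), Usp18 (0.696 ± 0.119) and Rsad2 (0.399 ± 0.027) (SD, n = 4). In GA of NT mice the order per kilobase was Bst2 (7.55 ± 4.62), Ifit3 (3.34 ± 1.31), Isg15 (1.53 ± 0.98), Rsad2 (1.26 ± 0.76), Irf7 (1.11 ± 0.84), Ifit1 (0.9854 ± 0.554) and Usp18 (0.594 ± 0.151) (SD, n = 5). Rsad2 was the lowest of the 7 in DEX mice and lay among Isg15, Irf7 and Ifit1 in NT mice. In each of the 5 NT libraries it lay below Isg15 and above Irf7, and it lay above Ifit1 in all but mouse 5. Some of these gaps were small, such as 1.051 for Isg15 and 1.041 for Rsad2 in NT mouse 2. In SO, Rsad2 averaged 1.23 ± 0.47 CPM per kilobase in DEX mice, close to Ifit1 at 1.20 ± 0.31, against 2.36 ± 0.29 in NT mice, where only Bst2 (8.001 ± 3.01) and Ifit3 (3.08 ± 0.95) were higher.

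Within a library, Rsad2 can be set against the mean log2 CPM of the other 6 genes. This log2 ratio of levels averaged -0.60 ± 0.03 in GA of DEX mice (n = 4) and 0.79 ± 0.17 in GA of NT mice (SD, n = 5). In SO it averaged 0.32 ± 0.29 in DEX mice and 1.78 ± 0.29 in NT mice. Over all 38 libraries of mice given DEX the ratio ran from -1.70 to -0.19 in GA, against 0.58 to 0.97 in NT mice. In SO it ran from -0.89 to 0.81 in mice given DEX, against 1.43 to 2.08 in NT mice. The ranges did not overlap in either muscle, and GA of NT mouse 3, far above its group in the level of Rsad2, lay at 0.96, within the range of its group. GA of JGT02 100 mg/kg mouse 1 lay at -0.19, below all NT mice. The ratio was formed after Rsad2 had been seen to differ and is given without a test.

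**Figure D4:**
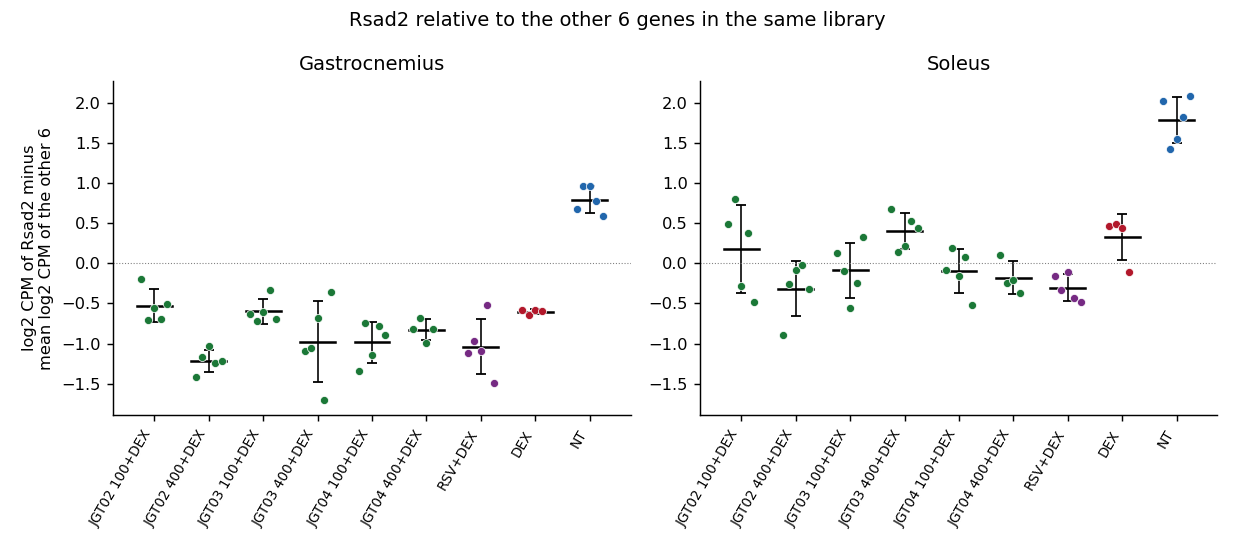
Log2 CPM of Rsad2 less the mean log2 CPM of the other 6 genes in the same library (linear axis) in GA (left) and SO (right), with group means as bars and 1 SD as whiskers. The 5 NT libraries of each muscle lie above all 38 libraries of mice given DEX.

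The gavage comparisons ask what extract or RSV added to DEX, and the 7 comparisons of a muscle share the same 4 DEX libraries. In GA, all libraries of JGT04 at 400 mg/kg and of RSV are of the second library set, and all DEX libraries of the first. For these treatments set and treatment can be told apart only through JGT04 at 100 mg/kg, which lies in both sets. The JGT04 libraries also enter the contrasts of extracts and of dose. In GA, 0 of the 7 genes were called for any treatment by edgeR or by DESeq2. The share of all genes called by edgeR was 10.2% for JGT02 at 100 mg/kg, 0.808% for JGT02 at 400 mg/kg, 0.0207% and 0.677% for JGT03 at 100 and 400 mg/kg, 1.38% and 2.04% for JGT04 at 100 and 400 mg/kg, and 1.37% for RSV. At an unadjusted p under 0.05, 2 of the 7 genes passed for JGT02 at 400 mg/kg and 1 for each of the other 6 treatments.

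Ifit3 accounted for most of those. Ifit3 was at 5.26, 9.29, 4.53, 10.2 and 9.33 CPM in GA of mice given JGT02 at 400 mg/kg, against 4.06, 3.88, 5.40 and 3.64 CPM in DEX mice. Treated mice 2, 4 and 5 lay well above all DEX mice, and mice 1 and 3 lay within the DEX range. The log2 difference was 0.86 (SE 0.25, edgeR adjusted p = 0.111). Over the 6 extract groups Ifit3 differed from DEX by 0.61 (SE 0.21, adjusted p = 0.156), where 1.26% of all genes were called and 0 of the 7 by edgeR or DESeq2. Without the 3 JGT02 libraries, Ifit3 passed for JGT02 at 400 mg/kg (0.87, adjusted p = 0.0192) and for the extracts together (0.58, adjusted p = 0.0482). Rsad2 in GA differed from DEX by -0.48 (interval -1.13 to 0.18) for RSV and by -0.23 to 0.55 for the 6 extract groups. The 0.55 belonged to JGT02 at 100 mg/kg and was -0.03 without mouse 1.

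In SO, all 7 treated groups had a lower mean Rsad2 level than DEX mice, and the difference passed for 1 of them. All libraries of JGT03, JGT04 and RSV are of the third library set and all DEX libraries of the second, so for these 5 treatments set and treatment can be told apart only through the 5 libraries of JGT02 at 400 mg/kg, which lie in both. With JGT04 at 100 mg/kg it was at 2.67, 2.98, 2.57, 2.47 and 2.65 CPM, against 6.11, 7.16, 5.66 and 2.42 CPM in DEX mice. The treated mice were nearly equal, and DEX mouse 4 lay just below them while the other DEX mice lay far above. The log2 fold change was -0.995 (SE 0.30, edgeR adjusted p = 0.0300), and Rsad2 was the only gene of the 7 called, where 8.95% of all genes were. The call of Rsad2 was lost without DEX mouse 1, 2 or 3 (adjusted p up to 0.0958) and without mouse 3, 4 or 5 of the treated group (up to 0.0678), with fold changes between -0.81 and -0.98. With the library set as a term the fold change was larger, -1.56, and did not pass (adjusted p = 0.254).

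With JGT04 at 400 mg/kg Rsad2 was at 2.83, 2.72, 3.58 and 2.08 CPM, a log2 difference from DEX mice of -0.93 (SE 0.32, edgeR adjusted p = 0.0834), where 4.58% of genes were called. With JGT02 at 400 mg/kg it was at 0.937, 3.36, 3.43, 5.20 and 2.41 CPM, a difference of -0.79 (SE 0.30, adjusted p = 0.0579), where 17.1% were called. With RSV it was at 2.83, 3.17, 3.85, 2.47 and 3.92 CPM, a difference of -0.71 (SE 0.30, adjusted p = 0.0996), where 12.7% were called. All 14 of these treated libraries lay below DEX mice 1 to 3, and 3 of them lay below DEX mouse 4. The differences were -0.55 (interval -1.13 to 0.02) for JGT02 at 100 mg/kg, -0.51 (interval -1.09 to 0.06) for JGT03 at 100 mg/kg and -0.41 (interval -0.99 to 0.17) for JGT03 at 400 mg/kg, where 8.82%, 8.49% and 3.06% of genes were called. By edgeR 0 of the 7 genes were called for these 6 treatments. At an unadjusted p under 0.05, 2 passed for JGT02 and for JGT04 at 400 mg/kg, 1 for JGT03 at 400 mg/kg and for RSV, and 0 for JGT02 and JGT03 at 100 mg/kg. DESeq2 called 1 for JGT02 at 400 mg/kg and 0 for the other 5. Without the 3 JGT02 libraries, edgeR called Rsad2 for JGT02 at 100 mg/kg (-0.78, adjusted p = 0.0136), JGT04 at 400 mg/kg (-0.93, 0.00792) and RSV (-0.71, 0.0163). Isg15 then passed for JGT04 at 400 mg/kg (-0.93, 0.0429). For JGT02 at 100 mg/kg Isg15 (-1.07, 0.0126), Bst2 (-0.79, 0.0105) and Usp18 (-0.73, 0.0204) passed too. The share of all genes called rose as well, as given below.

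Over the 6 extract groups together Rsad2 differed from DEX by -0.70 in SO (SE 0.22, edgeR adjusted p = 0.0314), the only call of the 7 where 13.9% of genes were called. It was lost without DEX mouse 1, 2 or 3, with changes between -0.52 and -0.67 (adjusted p up to 0.186). It was also lost with the library set as a term, where the change was larger at -1.12 (adjusted p = 0.129), and with only the groups compared in the fit, where it was -0.70 (0.0673). Without the 3 JGT02 libraries it was -0.71 (adjusted p = 0.00197), and Isg15 passed beside it at -0.81 (adjusted p = 0.00716). Endothelial markers differed in the same direction. Endothelial markers in SO summed to 268 to 494 CPM in the extract groups, against 534 to 719 CPM in DEX mice. Of the 10 markers 8 were called lower, where 1279 of all 14811 genes tested were. The part of those cells in the Rsad2 difference was not tested. Cmpk2 was lower than in DEX mice too, with a log2 fold change of -0.87 for JGT04 at 100 mg/kg (edgeR adjusted p = 0.0322) and -0.59 over the extracts (adjusted p = 0.0424). With the library set as a term Cmpk2 did not pass over the extracts either.

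With all libraries in the fit, no dose difference passed for the 7 genes. Between the 3 groups at 400 mg/kg and the 3 at 100 mg/kg, Rsad2 differed by -0.22 in GA (interval -0.57 to 0.14) and by -0.02 in SO (interval -0.35 to 0.30). By edgeR 0 of the 7 genes were called for dose in either muscle, with 0 at an unadjusted p under 0.05 and 0 by DESeq2, where 0.2% of genes in GA and 0% in SO were called. In SO 1999 genes had an unadjusted p under 0.05 for dose and DESeq2 also called 0. Without GA of JGT02 100 mg/kg mouse 1, Isg15 passed for dose in GA by edgeR (0.63, adjusted p = 0.0412). An F test across the 8 groups given DEX called 0 of the 7 genes in GA, where 13.2% of genes were called, and 0 in SO, where 31.6% were. At an unadjusted p under 0.05 it gave 2 genes in GA and 1 in SO, and DESeq2 called 0 in either. With the 3 JGT02 libraries left out, the F test called Ifit3 in GA, where 14.6% of all genes were then called, and Rsad2, Isg15, Ifit1, Ifit3 and Usp18 in SO, where 50.1% were.

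Between muscles, Rsad2 stood higher in SO. In NT mice it averaged 10.2 ± 1.3 CPM in SO and 5.45 ± 3.31 CPM in GA (SD, n = 5 each), and 4 of the 5 GA libraries lay below all SO libraries, with GA of mouse 3 at 11.3 CPM as the exception. Rsad2 was 1.81-fold higher in SO, a log2 difference of 0.85 (SE 0.28, edgeR adjusted p = 0.00854). Usp18 was 1.53-fold lower in SO, at 1.19, 1.36, 1.09, 1.12 and 0.868 CPM in SO against 1.44, 1.33, 2.36, 1.41 and 1.74 CPM in GA (log2 difference -0.61, SE 0.24, adjusted p = 0.0279). These were 2 calls of 7, where 45.8% of all genes were called. Without the 3 JGT02 libraries the Rsad2 difference was 0.86 (edgeR adjusted p = 0.000307), with 2 of the 7 called where 58.1% of all genes were. The NT libraries of GA are of the first library set and those of SO of the second. Muscle and set therefore cannot be told apart in this comparison. The call of Usp18 was lost without GA of NT mouse 3 (adjusted p = 0.142) or SO of NT mouse 5 (0.0741), and Irf7 passed without GA of NT mouse 3 (0.94, adjusted p = 0.0186).

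The change with DEX was not shown to differ between muscles. The interaction, the change in SO less that in GA, was 0.69 for Rsad2 in DEX mice (interval -0.15 to 1.53, edgeR adjusted p = 0.308) and 0.09 over all groups given DEX (interval -0.48 to 0.67). For both contrasts edgeR and DESeq2 called 0 of the 7 genes, with 0 at an unadjusted p under 0.05, where 8.36% of genes were called for DEX and 7.78% for all groups given DEX. Without the 3 JGT02 libraries and SO of DEX mouse 4, the interaction in DEX mice passed for Rsad2 (0.90, adjusted p = 0.0297) and Isg15 (1.16, adjusted p = 0.0415), where 29.3% of all genes were then called.

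The labels number the mice alike in both muscles, and deviations from the group were compared between GA and SO libraries of the same group and number, taken as 1 mouse. Over all genes tested, these pairs had a median correlation of 0.016 (-0.73 to 0.60), against 0.001 for pairs of other numbers. The data thus do not show that a number marks the same mouse in both muscles, and the pairing rests on the labels alone. Over 43 mice Pearson's r of the deviations in log2 CPM ran from -0.06 for Isg15 to 0.21 for Bst2, and 0 of 7 passed a two-sided permutation test (smallest adjusted p = 0.623 over the 7 genes). Bst2 had r = 0.21 and Spearman's rho = 0.41 (adjusted permutation p = 0.0445), and r = 0.41 (permutation p = 0.0111) after leaving out JGT02 100 mg/kg mouse 1 and NT mouse 3, the 2 mice farthest from the median in GA. Without the mice of the 3 JGT02 libraries r of Bst2 was 0.61 over 40 mice (adjusted permutation p = 0.00021), and 0.43 (permutation p = 0.0066) once NT mouse 3 and JGT02 400 mg/kg mouse 4 were left out too. Rsad2 had r = 0.11, rho = 0.11 and r = 0.23 without the 2 farthest mice, and none passed.

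Within a muscle the 7 genes varied together from library to library. Deviations of log2 CPM from the group mean were correlated for the 21 pairs of genes. Pearson's r had a median of 0.66 in GA (0.23 to 0.78) and 0.78 in SO (0.61 to 0.91) over 43 libraries each. Without the 3 JGT02 libraries the medians were 0.57 and 0.68. These libraries share library sets and immune cell content, so the values describe them and carry no test. For the genes named next, log2 CPM was used without subtracting group means, so those correlations also hold differences between groups. The 8 other genes that followed the mean of the 7 most closely in both muscles, among 14165 ranked by the lower of the 2 correlations, were Oasl2 (0.83), Rtp4 (0.79), Psmb8 (0.77), Uba7 (0.77), Parp14 (0.77), H2-T23 (0.77), Zbp1 (0.76) and Parp9 (0.74). Without the 3 libraries 7 of these 8 were again among the first 8. All 8 stood on the interferon pathway lists below.

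The pathway was examined by role with lists of 152 genes outside the 7, of which 149 were in the table. The ligands were nearly absent: of 21 interferon genes none passed the filter, no library held more than 3 counts of any of them, and Ifnb1 had 1 count in all 86 libraries together. Over the other lists 120 genes were tested in GA and 119 in SO. For DEX against NT, 1 was higher and 10 lower in GA, or 9.17% called beside 8.38% of all genes, and 10 were higher and 2 lower in SO, or 10.1% beside 20.8%. For all groups given DEX, 3 were higher and 31 lower in GA, or 28.3% beside 21.2% of all genes, and 9 were higher and 16 lower in SO, or 21% beside 17.8%. The GA count was 9 in all without NT mouse 3, beside 17.4% of all genes, and 61 without the 3 JGT02 libraries, beside 42.7%. In SO the count was 16 without NT mouse 2, and 42 without the 3 libraries, beside 34.4% of all genes.

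Over all groups given DEX, 2 of 8 receptor and kinase genes and 1 of 8 transcription factor genes were called in GA, beside 21.2% of all genes. Jak2, a kinase of the type II receptor, was higher in GA by 0.53 (edgeR adjusted p = 0.00132), Ifngr2, a subunit of that receptor, lower by -0.16 (adjusted p = 0.0406) and Irf1, an early transcription factor of the response, lower by -0.45 (adjusted p = 0.0437), at 6.39 ± 0.35 CPM in DEX mice and 9.02 ± 4.22 CPM in NT mice. Without NT mouse 3, Jak2 still passed (0.49, adjusted p = 0.00821), while Ifngr2 (-0.15, adjusted p = 0.114) and Irf1 (-0.12, adjusted p = 0.696) did not. Stat2 and Irf9, which act together at ISREs, did not pass in either muscle, with log2 differences of -0.31 and -0.25 in GA and -0.09 and -0.03 in SO. Irf3, the factor behind the first wave of interferon production, was higher in SO by 0.40 in DEX mice (adjusted p = 0.00414) and 0.27 over all groups given DEX (adjusted p = 0.00575).

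Interferon-inducible GTPases, which act against intracellular parasites and bacteria, were the list with the most lower calls. Over all groups given DEX, 11 of 13 tested were lower in GA and 12 of 13 in SO, with median log2 fold changes of -1.27 and -0.90, beside medians of 0.00 and 0.03 over all genes tested. Gbp4, a guanylate-binding protein, fell by 2.39 on the log2 scale in GA (edgeR adjusted p = 4.78e-06) and by 1.88 in SO (adjusted p = 0.000287). Tgtp1 fell by 2.26 and 1.61 and Tgtp2 by 2.22 and 1.52 in GA and SO, though these near-identical copies share reads. For the DEX group alone 5 were lower in GA and, by edgeR, 0 in SO, where 8 had an unadjusted p under 0.05 and DESeq2 called 4. Gbp4 averaged 5.95 ± 1.89 CPM in GA of DEX mice and 27.97 ± 37.9 CPM in GA of NT mice, and the large NT spread came from 1 library.

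The summed level of these GTPases shows how few NT mice carried the difference. In GA of DEX mice the interferon GTPases summed to 90.0 to 117 CPM, against 95.3, 102, 621, 112 and 163 CPM in NT mice 1 to 5. In SO they summed to 89.8 to 138 CPM in DEX mice, against 114, 334, 306, 160 and 133 CPM in NT mice 1 to 5. Most NT mice lay near the DEX range in GA, and NT mice 2 and 3 lay far above it in SO. Without GA of NT mouse 3, 3 of 13 were called lower over all groups given DEX in GA and 0 for DEX alone, a count that ran from 0 to 8 as single libraries were left out. Without the 3 JGT02 libraries, 10 in GA and 8 in SO were called lower for DEX alone, where 13.2% and 19.2% of all genes were. Without SO of NT mouse 2 or of mouse 3, 4 of 13 were called in SO. Rsad2 was lower in each DEX library than in every NT library of its muscle. The share of all genes that separate in this way was not counted.

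**Figure D5:**
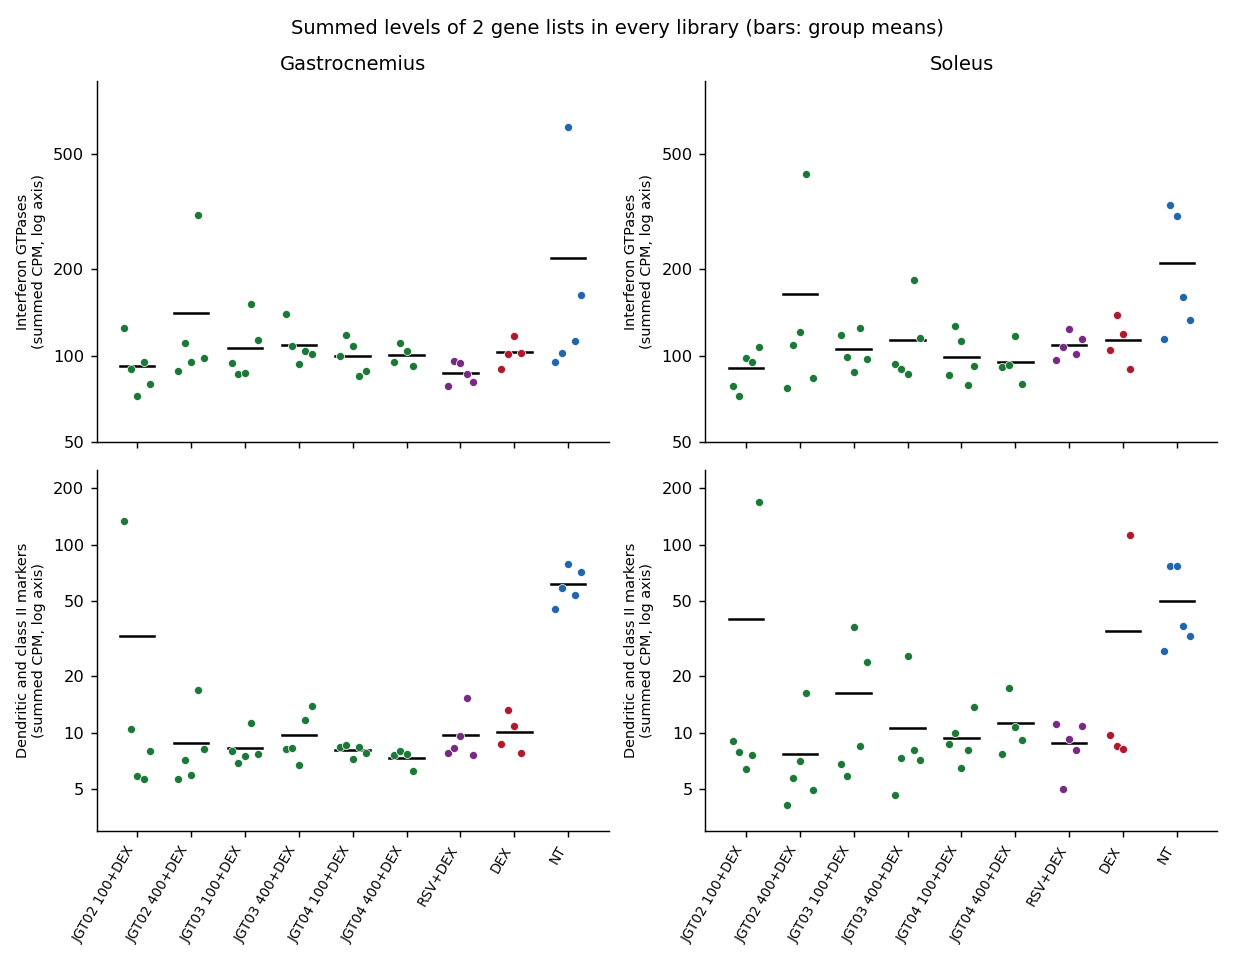
Summed CPM (log axes) of interferon GTPases (top) and of dendritic and class II markers (bottom) in every library of GA (left) and SO (right), with bars for group means. GTPases are high in GA of NT mouse 3 at 621 CPM and in JGT02 400 mg/kg mouse 4 of both muscles, while class II markers lie above all NT mice of the muscle in 3 libraries given DEX.

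Effectors, antigen presentation and chemokines were mixed. Of 52 antiviral effectors tested in GA, 1 was higher and 10 lower over all groups given DEX, and of 50 in SO 6 were higher and 3 lower. These shares, 21.2% in GA and 18% in SO, are close to the 21.2% and 17.8% of all genes, and without NT mouse 3 the GA count was 3 of 51. Ifi27l2a, an interferon-inducible protein of the mitochondrial membrane, was the one higher in both: it averaged 19.0 ± 2.4 CPM in GA of DEX mice and 8.55 ± 2.11 CPM in NT mice (edgeR adjusted p = 0.00136), and 47.8 ± 22.0 CPM in SO of DEX mice and 8.89 ± 4.06 CPM in NT mice (adjusted p = 0.00210). Slfn5, a member of the Schlafen family, fell in GA, at 10.2 ± 1.8 CPM in DEX mice and 16.3 ± 2.1 CPM in NT mice (adjusted p = 0.00886), and did not pass in SO, at 8.36 ± 2.05 CPM in DEX mice and 7.21 ± 1.53 CPM in NT mice. That difference between muscles passed its own edgeR test (interaction 0.87, adjusted p = 0.0261). In that test 2 of 122 pathway genes were called, 1.64% beside 8.36% of all genes. Of 13 genes of class I presentation, 6 were lower in GA over all groups given DEX, among them the activator Nlrc5 (-1.18), the peptide transporter Tap1 (-0.998), the immunoproteasome subunit Psmb9 (-0.72) and H2-T23 (-0.71), and 1 was lower in SO, Psme1 (-0.24). The class I genes summed to 253 to 266 CPM in GA of DEX mice, against 261, 270, 481, 287 and 352 CPM in NT mice 1 to 5. Without NT mouse 3, edgeR called 0 of the 13 in GA, with 2 at an unadjusted p under 0.05, and the changes were -0.19 for Nlrc5, -0.13 for Tap1, -0.10 for Psmb9 and -0.32 for H2-T23. In SO the chemokine gene Ccl2 (3.60, adjusted p = 0.0150) and the feedback inhibitor Socs3 (2.92, adjusted p = 0.00291) were called higher in DEX mice, and 1 library carried both calls. Ccl2 was at 0.960, 0.382, 0.703 and 28.7 CPM in DEX mice 1 to 4, against 0.225 to 1.47 CPM in NT mice. Socs3 was at 5.05, 3.48, 6.17 and 80.02 CPM in DEX mice 1 to 4, against 1.60 to 4.88 CPM in NT mice. Without DEX mouse 4 neither passed, at 0.10 for Ccl2 (adjusted p = 0.964) and 0.65 for Socs3 (adjusted p = 0.485).

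In GA, 17 of 120 pathway genes were higher with JGT02 at 100 mg/kg than with DEX, 14.2% beside 10.2% of all genes, and all 10 macrophage markers tested were called higher in that comparison, which holds the library with 2527 CPM of macrophage markers. Without that library edgeR called 0 of 119 pathway genes, with 7 at an unadjusted p under 0.05, and 0.963% of all genes. For the other 6 treatments in GA edgeR called 0 of 120, with 3 to 6 at an unadjusted p under 0.05. In SO the extracts together gave 1 higher and 11 lower of 119, or 10.1% beside 13.9% of all genes. The lower ones included Socs3 (-2.14), Ccl2 (-3.97), Irf9 (-0.43), the effectors Ifi44 (-0.72) and Helz2 (-0.48), and Cmpk2 (-0.59). Without DEX mouse 4 the count was 6 of 120, beside 6.2% of all genes, and the changes of Socs3 (0.13, adjusted p = 0.933), Ccl2 (-0.47, adjusted p = 0.846) and Irf9 (-0.28, adjusted p = 0.382) did not pass, while Ifi44 (-0.94), Helz2 (-0.50) and Cmpk2 (-0.81) did. Without the 3 JGT02 libraries the count was 51 of 118, beside 39.6% of all genes. With the library set as a term it was 0 of 119, with 31 at an unadjusted p under 0.05, beside 0.513% of all genes.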

How the data were processed

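RNA was extracted from GA and SO with TRIzol and libraries were made with a directional kit and sequenced as pairs of 100 bases, per the labels' protocols. The authors deposited 1 table of expected counts per gene for 86 libraries. Per the submitters' processing notes, FastQC 0.11.9, Trim Galore 0.6.5, STAR 2.7.3a, RSEM 1.3.3 and build GRCm38/mm10 were used. The annotation, whether counting used strand and filters are not given in the sources used here. Of the values, 92.0% were whole. Expected counts divide reads between similar genes by estimate, which matters most for Ifit3.

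Expected counts were rounded and tested with edgeR 4.0.16 in R 4.3.3 (TMM factors, filterByExpr, glmQLFit and glmQLFTest), in 1 fit per muscle over 9 groups and 1 joint fit over all 86 libraries for comparisons between muscles. The fits tested 14484 genes in GA, 14811 in SO and 15327 jointly, p-values were adjusted by Benjamini-Hochberg over all of them, and 0.05 was the threshold. Intervals are at 95%. The 7 genes, the lists and the rules were chosen with earlier results of these data known. Besides the 7 genes, the text names at most 4 genes per list, direction and comparison, those with the largest fold change among called genes with a mean of at least 1 CPM, plus receptor and transcription factor genes that were not called, chosen to describe the pathway, and the 8 genes most correlated with the mean of the 7. Correlations used log2 CPM with a prior count of 2, less the group mean except in the ranking of those 8 genes. The p-values of correlations between muscles are from two-sided permutation tests. One gene of the pathway lists is counted there but is not reported here by name. The scripts were tested on simulated data. Alternatives were DESeq2 1.42.0, no filter, the mouse number as a block, the library set as a term, only the groups compared, and leaving out libraries. For the gene lists these alternatives were chosen after seeing the data. Positions are from GENCODE vM21 and promoters from RefSeq. Same-numbered mice did not deviate together within a muscle. The labels' protocol speaks of 5 groups while the samples form 9, and the samples were grouped by their own labels.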

Additional observations from a re-analysis of the deposited data

Results flagged for a closer look

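In 126 sets of 4 or 5 libraries (7 genes in 18 groups), the highest or lowest value was tested against the gap to its neighbour, and 19 were flagged. Chance flags about 5% of independent sets of normal values. These sets hold 7 genes that vary together in the same libraries, so the number of flags cannot be read against that share. Of the 19 flags, 4 fell on GA of JGT02 100 mg/kg mouse 1, 4 on GA of NT mouse 3 and 3 on SO of JGT02 100 mg/kg mouse 5, each time as the highest value.

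GA of JGT02 100 mg/kg mouse 1 was flagged for Bst2 at 16.5 CPM, Irf7 at 12.5 CPM, Isg15 at 4.00 CPM and Rsad2 at 5.68 CPM. SO of JGT02 100 mg/kg mouse 5 was flagged for Bst2 at 21.1 CPM, Irf7 at 18.2 CPM and Isg15 at 4.27 CPM. Those libraries also had the highest macrophage marker sums of their muscles, and the part of those cells in the levels was not tested. GA of NT mouse 3 was flagged for Bst2 at 14.2 CPM, Irf7 at 9.76 CPM, Isg15 at 2.47 CPM and Rsad2 at 11.3 CPM. Its macrophage marker sum of 97.0 CPM lay in the range of the DEX mice, and its GTPase sum of 621 CPM was the highest of GA.

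The other flags were spread. Bst2 was flagged at 10.6 CPM in GA of JGT02 400 mg/kg mouse 4 and at 7.01 CPM in GA of JGT04 100 mg/kg mouse 2. Ifit3 stood out at 9.49 CPM and Rsad2 at 2.84 CPM in GA of JGT03 100 mg/kg mouse 4. Ifit1 stood out at 4.67 CPM and Ifit3 at 8.52 CPM in GA of JGT04 400 mg/kg mouse 3. Ifit1 was also flagged at 3.12 CPM in SO of JGT04 100 mg/kg mouse 5, and Isg15 at 3.10 CPM in SO of RSV mouse 5.

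Few pathway genes outside the 7 changed differently in SO than in GA, by edgeR's interaction term. For DEX, 2 of 122 tested were called, 1.64% beside 8.36% of all genes. For all groups given DEX, 4 of 122 were called, 3.28% beside 7.78% of all genes. Nmi, a partner of STAT proteins, had a change in SO less that in GA of 0.57 for DEX (adjusted p = 0.0225) and 0.43 for all groups given DEX (adjusted p = 0.0145). For Slfn5 these were 0.87 (adjusted p = 0.0261) and 0.55 (adjusted p = 0.0489). For all groups given DEX, Ifngr2 differed by 0.28 (adjusted p = 0.0499996) and Pias1, a ligase of the small modifier SUMO, by -0.23 (adjusted p = 0.0255).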

How the results depend on the processing

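The fall of Rsad2 against NT kept its direction and its call in 16 of 16 alternatives for GA DEX, 49 of 49 for GA of all groups given DEX, 50 of 50 for SO of all groups given DEX and 16 of 17 for SO DEX, the exception being SO without DEX mouse 4. No called value of the 7 genes reversed. Counts of the 7 genes called moved as follows. Without the 3 JGT02 libraries, 1 of the 7 was called in GA for JGT02 at 400 mg/kg, the extracts together, the F test and dose. In SO the counts were then 2 for DEX, 4 for JGT02 at 100 mg/kg, 2 for JGT04 at each dose, 1 for RSV, 2 for the extracts and 5 for the F test. Without SO DEX mouse 4 as well, an alternative chosen after seeing the data, they were 2 for DEX, 5 and 1 for JGT02 at 100 and 400 mg/kg, 1 and 2 for JGT03, 2 for JGT04 at each dose, 1 for RSV, 2 for the extracts, 5 for the F test and 2 for the difference between muscles in DEX. The share of all genes called was larger too: without the 3 libraries 1.68% to 14.6% in GA and 22.2% to 50.1% in SO for these comparisons, and without SO DEX mouse 4 as well 10% to 44.9% in SO. Without the mice of the 3 libraries 1 correlation between muscles passed. With only the groups compared in the fit, 1 was called for JGT04 at 100 mg/kg in GA, 3 for it in SO and 0 for the extracts in SO. With the library set as a term, 0 were called in SO for JGT04 at 100 mg/kg and for the extracts, and 1 for JGT02 at 400 mg/kg, which DESeq2 also gave. The cause of these shifts was not tested.

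With the mouse number as a replicate block, 1 of the 7 genes was called in SO for JGT02 at 400 mg/kg and 2 for the extracts. GTPases called lower for DEX were then 3 in GA and 1 in SO, and pathway genes called for DEX in SO were 23. The block moved no other count by over 1.5 times. Same-numbered libraries of different groups correlated over 0.1 in 7 of 165 pairs in GA and 39 of 165 in SO, and were not taken as pairs. Between muscles, 11 of 43 mice had their GA library correlate best with the SO library of their own number. This does not show that the numbers mark the same mouse.

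The GTPase and pathway counts, added after seeing the data, moved more. GTPases lower for DEX were 3 without the filter, 1 with only the groups compared and 10 without the 3 libraries in GA. In SO they were 4 with DESeq2, 4 with the library set, 4 with only the groups compared, 8 without the 3 libraries and 1 without DEX mouse 4 too. Pathway genes called for DEX were 7 in GA without the filter, 41 in GA and 49 in SO without the 3 libraries, and in SO 29 with only the groups compared and 29 without DEX mouse 4 too. For all groups given DEX they were 20 in GA and 12 in SO with the library set, 61 in GA and 42 in SO without the 3 libraries, and 43 in SO without DEX mouse 4 too.

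Leaving out 1 library at a time, counts of the 7 genes ran from 1 to 2 in GA for all groups given DEX and for SO against GA. They ran from 0 to 1 in GA for the extracts, the F test and dose, and in SO for DEX, JGT02 at 400 mg/kg, JGT04 at each dose and RSV. In SO they ran from 0 to 4 for JGT02 at 100 mg/kg, 0 to 2 for the extracts and 0 to 3 for the F test. GTPases lower ran from 0 to 8 in GA and 0 to 4 in SO for DEX, and from 3 to 12 in GA and 4 to 13 in SO for all groups given DEX. Pathway genes ran from 3 to 15 in GA and 6 to 15 in SO for DEX, and from 9 to 61 in GA and 16 to 38 in SO for all groups given DEX. For the change over all groups given DEX between muscles, leaving out libraries other than NT and DEX was not run. At levels of a few CPM, the 95% intervals of the 6 uncalled genes against NT lay between -1.08 and 1.53 on the log2 scale.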

Other observations

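GA and SO libraries of the same mouse number, taken as 1 mouse on the labels alone, can be compared where a library stands out. JGT02 400 mg/kg mouse 4 had GTPase sums of 308 CPM in GA and 427 CPM in SO, the highest of the mice given DEX in both muscles. NT mouse 3 had 621 CPM in GA and 306 CPM in SO. The mice whose macrophage marker sums were far above the rest were different ones in GA (JGT02 100 mg/kg mouse 1) and in SO (JGT02 100 mg/kg mouse 5).

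Usp18 in SO stood above its highest NT library, 1.36 CPM, in 21 of the 38 libraries of mice given DEX, though the log2 difference of 0.32 did not pass (edgeR adjusted p = 0.343).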
